A study of Mus musculus with 27 samples.

Results

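The windows described here are stretches of open chromatin that lay between genes, near a transcription start site (TSS), and that were accessible in Kupffer cells of control mice and of mice on a diet used as a model of non-alcoholic steatohepatitis (NASH), in which the liver is fatty and inflamed. They were the rows of the authors' H3K27ac table that carried both ATAC-seq list names (control and 20-week diet, each of Tim4-positive cells), the annotation intergenic, and an absolute distance of more than 1000 and at most 50000 bp to the nearest TSS. The rule found 9678 of the 70300 windows. Of these, 7310 lay upstream and 2368 downstream of the TSS of 4612 nearest genes, of which 2484 had 1 such window and 36 had at least 10. The nearest gene is the assignment made with HOMER and names a neighbour, not a target. H3K27ac took no part in the rule.

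Kupffer cells are the resident macrophages of the liver. Per the labels they were sorted as F4/80-high, Tim4-positive cells, the mice were C57BL/6J, and H3K27ac had 2 libraries on the control diet and 2 on the NASH diet. Liver perfusion and digestion of both diets' samples were done with flavopiridol, an inhibitor of transcription elongation, per the labels' protocols. The nuclear receptor LXR, the transcription factor ATF3 and the acetyltransferase P300 were also profiled, with 2 libraries per factor and diet and 1 deposited list of reproducible sites per factor and diet. Not analysed here were 11 of the 27 samples, namely 10 inputs and 1 library of H3K27ac from peritoneal macrophages. The headers of the NASH lists of LXR and P300 carry another name than the labels, so their time on the diet may differ from that of the H3K27ac libraries. The labels do not state whether the 2 libraries of a group are from different animals, so the p-values rest on a spread between libraries that may be technical.

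Enhancers are stretches of DNA, often far from promoters, where transcription factors bind and recruit coactivators such as P300, which acetylates histones. Acetylation of histone H3 at lysine 27 (H3K27ac) marks active enhancers and promoters, so its level around an accessible window is a usual readout of enhancer activity. In Kupffer cells LXR is one of the factors that maintain the identity of the cell, and ATF3 is a stress-induced factor of the ATF and AP-1 family.

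The letters of a window are shown where it coincided with a RefSeq promoter, 250 bases before to 50 after a gene's start (RefSeq, GRCm38.p6, the build mm10 of the files). Of the 9678 windows, 210 overlapped such a promoter, among them windows that HOMER called intergenic but where RefSeq has the start of a long noncoding RNA (lncRNA). The first 2 stretches below belong to windows in which H3K27ac rose with the NASH diet, and the other 3 to windows in which it fell. The windows had Plxnc1 (chr10:94961395-94961598, plus strand, start of the lncRNA Gm40744), 2310043O21Rik (chr15:38602237-38602455, minus strand, Gm41309), Rap1b (chr10:117876478-117876741, plus strand, Gm32605), Ccr7 (chr11:99168097-99168337, plus strand, Gm32249) and Trim30b (chr7:104400784-104401018, minus strand, the coding gene Trim30c) as nearest gene. Capitals mark matches to the motifs given after the sequences.
Plxnc1 window: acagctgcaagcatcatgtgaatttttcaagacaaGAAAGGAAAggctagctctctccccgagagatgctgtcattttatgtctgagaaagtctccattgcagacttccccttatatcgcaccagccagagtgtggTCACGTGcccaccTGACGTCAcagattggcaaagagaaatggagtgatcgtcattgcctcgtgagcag
2310043O21Rik window: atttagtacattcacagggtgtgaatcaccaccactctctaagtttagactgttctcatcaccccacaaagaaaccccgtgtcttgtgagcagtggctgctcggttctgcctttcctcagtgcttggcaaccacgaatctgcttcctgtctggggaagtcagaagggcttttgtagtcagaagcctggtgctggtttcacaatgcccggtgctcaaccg
Rap1b window: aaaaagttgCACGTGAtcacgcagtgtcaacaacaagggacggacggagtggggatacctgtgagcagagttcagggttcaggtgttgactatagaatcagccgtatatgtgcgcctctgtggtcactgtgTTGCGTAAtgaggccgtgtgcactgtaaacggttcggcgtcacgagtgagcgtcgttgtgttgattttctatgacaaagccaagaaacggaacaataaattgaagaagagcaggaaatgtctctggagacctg
Ccr7 window: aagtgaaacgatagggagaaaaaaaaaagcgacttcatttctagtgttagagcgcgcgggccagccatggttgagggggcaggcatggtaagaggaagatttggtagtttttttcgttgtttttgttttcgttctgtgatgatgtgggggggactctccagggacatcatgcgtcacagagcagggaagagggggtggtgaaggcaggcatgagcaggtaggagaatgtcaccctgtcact
Trim30b window: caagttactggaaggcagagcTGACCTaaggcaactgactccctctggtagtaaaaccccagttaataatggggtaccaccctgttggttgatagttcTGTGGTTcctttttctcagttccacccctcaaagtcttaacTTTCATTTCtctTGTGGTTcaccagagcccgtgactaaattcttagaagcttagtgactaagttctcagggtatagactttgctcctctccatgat

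The motifs were searched on both strands, and a match of one may overlap a match of another. They were ETS and PU.1 (GAGGAAGT), AP-1 (TGACTCA), CRE-like sites of ATF factors (TGACGTCA), the C/EBP-ATF composite (TGATGCAA), C/EBP (TTGCNNAA), the MiT E-box (TCACGTG), the nuclear receptor half-site (AGGTCA), RUNX (TGTGGTT), IRF (GAANNGAAA), the ETS-IRF composite (GGAANNGAA), NF-kB (GGGANTTTC), the MAF half-site (TGCTGAC), RBPJ (GTGGGAA), the CTCF core (AGNNGGCGC) and the GC box (GGGCGGGG). The Plxnc1 stretch holds a CRE-like site, an E-box and an IRF match, the Rap1b stretch a C/EBP match and an E-box, and the Trim30b stretch a half-site, an IRF match and 2 RUNX matches. In the stretches of 2310043O21Rik and Ccr7 none of these letters occurred. Among the 32851 promoters of the RefSeq table, 1.79% held the CRE-like letters, 3.77% the E-box, 7.52% the IRF letters, 10.8% the C/EBP letters, 16.3% the half-site and 5.27% the RUNX letters. Of the 208 promoters that overlapped one of the near intergenic windows, 0.962% held the CRE-like letters, 6.73% the E-box and 11.5% the IRF letters. A match describes the letters only, not an occupied site.

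A microRNA gene was the nearest gene of 266 windows outside satellite repeats. Of the 142 of these that were tested, 7 rose and 4 fell (4.93% and 2.82%, against 2.36% and 3.93% of all tested near intergenic windows and 2.00% and 4.59% of all tested windows of the table). The mature arms of 4 of these microRNAs are given with their seed, bases 2 to 8, in capitals (RefSeq, GRCm38.p6). They are the arms for which the miRNAs are best known, and the 4 seeds differ from one another. miR-34a-5p lies at chr4:150068473-150068494 (plus), miR-23a-3p at chr8:84208563-84208583 (plus), let-7a-5p at chr13:48538239-48538260 (minus) and miR-30a-5p at chr1:23272274-23272295 (plus). H3K27ac rose in windows beside the first 3 and fell beside the last.
miR-34a-5p: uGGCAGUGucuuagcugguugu
miR-23a-3p: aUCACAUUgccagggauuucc
let-7a-5p: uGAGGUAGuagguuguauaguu
miR-30a-5p: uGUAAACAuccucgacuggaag

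H3K27ac was deposited as tags per window, scaled by the authors to 10000000 tags per library and called normalised tags here. Library totals were 9468035 and 22615879 tags on the control diet and 18749728 and 19231109 tags on the NASH diet. The near intergenic windows took 11.02% and 11.58% of the tags in all windows on the control diet and 11.49% and 11.74% on the NASH diet, a difference of 0.31 percentage points (exact permutation test over libraries, two-sided p = 0.667, n = 2 per diet, smallest possible p = 0.333). A window of this kind held a median of 5 and 10 tags in the control libraries and 8 and 8 in the NASH libraries, and between 845 and 965 windows per library had no tag. The limit that a count of 0 leaves, 3 tags, corresponds to 3.17 and 1.33 normalised tags in the control libraries and 1.60 and 1.56 in the NASH libraries. Intervals and this limit cover counting error only.

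All 8 genes listed as Kupffer cell markers had windows with H3K27ac on both diets. Summed over them, H3K27ac per kb of window was 555 and 530 on the control diet against 375 and 337 on the NASH diet, and that of Timd4, which encodes the sorted surface protein Tim4, was 58.8 and 58.6 against 4.88 and 5.96. Clec4f, Vsig4, Marco, Adgre1 and C1qa also lay lower in both NASH libraries. Cd5l differed little (120 and 122 against 118 and 110), and for Csf1r the diets overlapped (69.4 and 43.4 against 59.5 and 47.2). Of the marker lists of other cell types, the T and NK cell list (2 of 5 genes with windows) summed to 61.6 and 67.5 against 113 and 144, the monocyte list (5 of 5) to 467 and 454 against 516 and 555, and the cholangiocyte list (2 of 5) to 16.3 and 14.05 against 72.6 and 45.1. The endothelial list (5 of 5) summed to 104 and 71.2 against 67.2 and 59.4 and the stellate cell list (1 of 5) to 33.6 and 40.0 against 29.98 and 25.4. The B cell list (2 of 5) summed to 35.6 and 56.5 against 43.2 and 30.02, the neutrophil list (3 of 5) to 5.27 and 19.5 against 11.6 and 6.28 and the hepatocyte list (3 of 5) to 52.0 and 56.8 against 57.95 and 55.6. In the T and NK cell list the single window of Cd3d went from 13.3 and 14.9 to 51.6 and 91.8, while Klrb1c had 48.3 and 52.6 against 61.8 and 52.2. Most of the cholangiocyte sum was Spp1, at 2.64 and 4.40 against 59.7 and 37.5. No window used here was assigned to Cd79a, Cd3e, Cd8a, Ly6g, Krt7, Krt19 or Sox9. The part of these cells in the results below was not tested. In bulk samples, fewer cells with a mark and less of the mark per cell cannot be told apart.

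The main comparison asked in which of these windows H3K27ac differed between the diets. It could be tested in 4736 of the 9678 windows. The other 4942 had too few tags, with a median of 1.89 normalised tags against 12.1 in the tested ones, and 59 had no tag in any library. H3K27ac rose in 112 of the tested windows (2.36%) and fell in 186 (3.93%), next to 82 and 160 genes (limma, adjusted p under 0.05, log2 change beyond 1 in either direction). Over all 35947 tested windows of the table the same rule called 2.00% raised and 4.59% lowered, so both shares lay near the background. The balance of the directions depended on the scaling. With TMM factors, which equalise the bulk of the windows, 173 rose and 90 fell (3.65% and 1.90%), against 3.32% and 2.51% of all windows. All 112 raised windows were also called raised with TMM, and 90 of the 186 lowered ones lowered. Each called window described below by its counts of tags passed the filter on low counts only through the diet where it was high. Its p-value, ratio and interval thus rest on the values that admitted it to the test. Other called windows below with low values on 1 diet passed in the same way, so their changes and p-values carry the same limit. Among them are windows of Notch4, Nenf, 4930563H07Rik, Zc3h12a, Vps13d, A630001O12Rik, AY702102, Ebf2, Gm33677 and Ccr7. In all, 55 of the raised windows passed only through the NASH libraries, and 86 of the lowered ones only through the control libraries. The call rests on both NASH libraries: without NASH replicate 1, 18 rose and 84 fell, and without NASH replicate 2, 14 rose and 40 fell.

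Each change below is a log2 ratio, NASH to control, computed on log2(value + 1), so that changes of low values are understated, and is given relative to the median of all tested windows, which lay at −0.26. The promoter windows of a gene, summed here, are all windows within 1000 bp of its TSS. Changes of these sums are given relative to the median of all promoter sums, −0.29, and ratios of windows to promoters with no median removed. Calls and adjusted p-values refer to the change before this median was subtracted, which makes a tested rise smaller, and a tested fall larger, than the printed one. The median change of the tested near intergenic windows was 0.07. The raised windows changed by 1.27 to 3.86, with a median of 2.07, and went from a median of 4.79 to 19.8 normalised tags. The lowered windows changed by −4.24 to −0.81, with a median of −1.55, and went from 20.1 to 4.74.

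**Figure D1:**
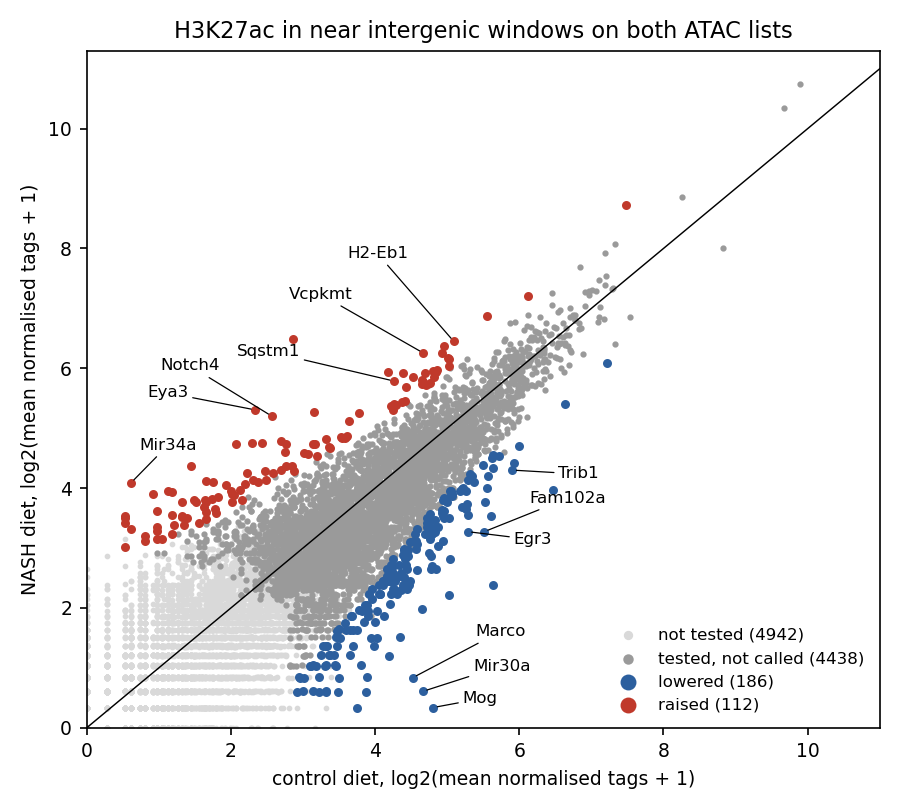
Mean H3K27ac of each of the 9678 windows on the NASH diet (vertical axis) against the control diet (horizontal axis), both as log2(mean normalised tags + 1) over 2 libraries, with the line of equal values. The 112 raised windows (red) lie above the line and the 186 lowered ones (blue) below it, and both border on or mix with the 4438 tested windows without a call (grey), while 4942 windows were not tested (light grey).

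H3K27ac rose strongly upstream of Notch4, which encodes a receptor of the Notch pathway, and here a group of windows moved together. The window at −7764 bp (chr17:34556414-34556649, within the RefSeq lncRNA Gm31560) had 6.34 and 3.54 normalised tags in the control libraries and 31.5 and 40.0 in the NASH libraries. It went from 4.94 ± 1.98 to 35.8 ± 6.06 (mean ± SD of the 2 libraries of each diet), a log2 change of 2.92 (SE 0.40, limma adjusted p = 0.000962), and was called whichever library was left out. The windows at −7172 bp (4.22 and 3.10 against 18.1 and 18.2) and −8563 bp (2.11 and 0.88 against 8.53 and 16.6) rose as well, so that 3 of the 4 Notch4 windows were called. Summed over the 3, the libraries held 12.7 and 7.52 against 58.1 and 74.9. Without NASH replicate 2 the calls at −7172 and −8563 bp were lost (limma adjusted p = 0.129 and 0.208), and without NASH replicate 1 that at −7172 bp (0.0964).

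Another group lay downstream of Nenf, the gene of the secreted protein neudesin. The window at 37236 bp (chr1:191280772-191280992) went from 22.2 and 11.9 to 64.0 and 56.7 normalised tags, a change of 2.08 (SE 0.31, limma adjusted p = 0.00231), and was called whichever library was left out. Of the 5 tested windows with Nenf as nearest gene, 4 rose, by 2.08 to 3.09. Their sum went from 28.5 and 16.4 to 100.8 and 93.1. The calls of the other 3 (39561, 40263 and 42282 bp) were lost without NASH replicate 1, with limma adjusted p-values of 0.102, 0.0686 and 0.115. Those at 39561 and 42282 bp were also lost without NASH replicate 2 (0.154 and 0.307), and the latter without control replicate 1 (0.0527) or control replicate 2 (0.0641). The promoter windows of Nenf itself changed by −0.88 (limma adjusted p = 0.104), a value in the other direction that did not pass the test.

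Upstream of Eya3, which encodes a transcriptional coactivator with phosphatase activity, the window at −27550 bp (chr4:132611377-132611616) went from 6.34 and 1.77 to 48.5 and 28.6 normalised tags. The change was 3.35 (SE 0.47, limma adjusted p = 0.00101) and was called whichever library was left out. RefSeq places Ptafr, the receptor for platelet-activating factor, 28694 bp from this window, about as near as Eya3. Near the gene model 4930563H07Rik, 3 windows rose within 1527 bp. The one at −14090 bp (chr6:49013595-49013817) went from 2.11 and 1.33 to 21.9 and 17.7, a change of 3.20 (SE 0.50, limma adjusted p = 0.00217), and was called whichever library was left out. It had enough tags for testing only in the NASH libraries. RefSeq places Gpnmb, a glycoprotein of lipid-laden macrophages, 22701 bp away from it. The calls at −13603 and −12777 bp were lost without NASH replicate 1 (limma adjusted p = 0.244 and 0.144), without NASH replicate 2 (0.139 and 0.118) and without control replicate 2 (0.0642 and 0.100).

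Raised windows also lay near Nfkbia, Zc3h12a and Cxcl1. The window of Nfkbia and those of Zc3h12a at −3472 and −17529 bp had enough tags for testing only in the NASH libraries. Beside Nfkbia, which encodes the NF-kB inhibitor IkB-alpha, the window at 26178 bp (chr12:55466356-55466582) had 0 and 0.88 normalised tags on the control diet and 13.3 and 7.80 on the NASH diet. These were 2 against 40 tags, a ratio of 16.9 with an exact 95% interval of 4.38 to 144 after scaling for depth (log2 change 3.29, SE 0.64, limma adjusted p = 0.00794, and 0.0655 without NASH replicate 1). Of the 7 windows of Zc3h12a, which encodes the RNase Regnase-1 that degrades inflammatory transcripts, 3 rose. The one at −3472 bp (chr4:125131235-125131472) went from 1.06 and 1.33 to 13.3 and 15.6, a change of 3.07 (SE 0.54, limma adjusted p = 0.00449, and 0.0618 without NASH replicate 2). The 3 called Zc3h12a windows summed to 12.7 and 7.52 against 42.1 and 46.3, and the other 4 to 22.2 and 34.9 against 39.5 and 39.5. The calls at −3763 and −17529 bp were lost without NASH replicate 1 (0.171 and 0.106) or NASH replicate 2 (0.319 and 0.119), and that at −3763 bp without control replicate 2 (0.126). Upstream of Cxcl1, a chemokine that attracts neutrophils, the window at −14207 bp went from 12.7 and 10.2 to 37.9 and 29.6 (1.74, SE 0.34, limma adjusted p = 0.0132). That call was lost without NASH replicate 1 (0.150) or NASH replicate 2 (0.0903).

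The window at −1446 bp from H2-Eb1, which encodes a chain of an MHC class II molecule that presents antigen (chr17:34304311-34304531), rose from 31.7 and 34.5 to 91.2 and 81.6 normalised tags. The change was 1.62 (SE 0.24, limma adjusted p = 0.00291). The window beside Sqstm1, the gene of the autophagy receptor p62, at −2343 bp (chr11:50213060-50213266) rose from 16.9 and 19.5 to 54.9 and 53.6, a change of 1.79 (SE 0.28, limma adjusted p = 0.00371). At −5788 bp from Amz2, which encodes a metalloprotease, the values went from 56.0 and 35.8 to 122 and 111. At 44926 bp from Vcpkmt, a methyltransferase gene, they went from 28.5 and 20.3 to 86.4 and 64.5. Among the 4438 tested windows without a call, the diets did not overlap in 2192. In the 4 called windows given here, as in all 112 raised ones, the NASH libraries lay above both control libraries. Each of these calls was lost without NASH replicate 1, with limma adjusted p-values of 0.0537 (H2-Eb1), 0.0506 (Sqstm1), 0.0537 (Amz2) and 0.0593 (Vcpkmt), and that of Sqstm1 also without NASH replicate 2 (0.0609).

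Among the raised windows with the fewest tags on the control diet were those of Plxnc1 and Vps13d. The windows of Plxnc1, Vps13d and 2310043O21Rik had enough tags for testing only in the NASH libraries. The window of Plxnc1, a receptor of semaphorins, at −16918 bp is the one whose CRE-like site and E-box are shown above. It had 0 and 0.88 normalised tags against 13.9 and 6.76, which were 2 against 39 tags and a ratio of 16.5 (exact 95% interval 4.26 to 141). Its limma adjusted p was 0.0100, and 0.0856 without NASH replicate 1. The window of Vps13d, a gene of lipid transport between membranes, at −6635 bp had 0 and 1.77 against 17.6 and 10.4 (3.39, SE 0.63, limma adjusted p = 0.00603, and 0.0656 without NASH replicate 1). RefSeq places Tnfrsf1b, a receptor of tumour necrosis factor, 10618 bp from it. The 2310043O21Rik window, whose letters are shown above, had 1.06 and 0.88 against 10.1 and 7.28, or 3 against 33 tags (ratio 9.29, exact 95% interval 2.91 to 47.4). Its limma adjusted p was 0.0260, and 0.130 and 0.0924 without NASH replicate 1 or 2.

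The raised windows near microRNA genes included those of Mir34a and Mir23a. Both called Mir34a windows had enough tags for testing only in the NASH libraries. At −7437 bp from Mir34a, a microRNA induced by p53 (chr4:150060908-150061127), the libraries held 1.06 and 0 normalised tags against 10.7 and 21.3. These were 1 against 61 tags, a ratio of 51.5 (exact 95% interval 8.91 to 2068), with a log2 change of 3.75 (SE 0.61, limma adjusted p = 0.00258, and 0.0522 without NASH replicate 2). At −4033 bp the tags were 3 against 35 (ratio 9.86, 3.11 to 50.1), and this call was lost without NASH replicate 1 (limma adjusted p = 0.0611) or NASH replicate 2 (0.172). The third Mir34a window was called raised by limma with TMM but not on the authors' scaling. At −10974 and −10434 bp from Mir23a, 33.8 and 26.5 normalised tags stood against 73.6 and 89.4, and 64.4 and 72.5 against 136 and 157. The changes were 1.67 (limma adjusted p = 0.00328) and 1.34 (0.00560), and both were lost without NASH replicate 2 (0.0883 and 0.130). At −14027 bp from Mirlet7a-1 the values were 12.7 and 9.73 against 34.7 and 21.8 (1.5, limma adjusted p = 0.0469), a call that was lost without NASH replicate 1 (0.358), NASH replicate 2 (0.120) or control replicate 2 (0.0671).

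**Figure D2:**
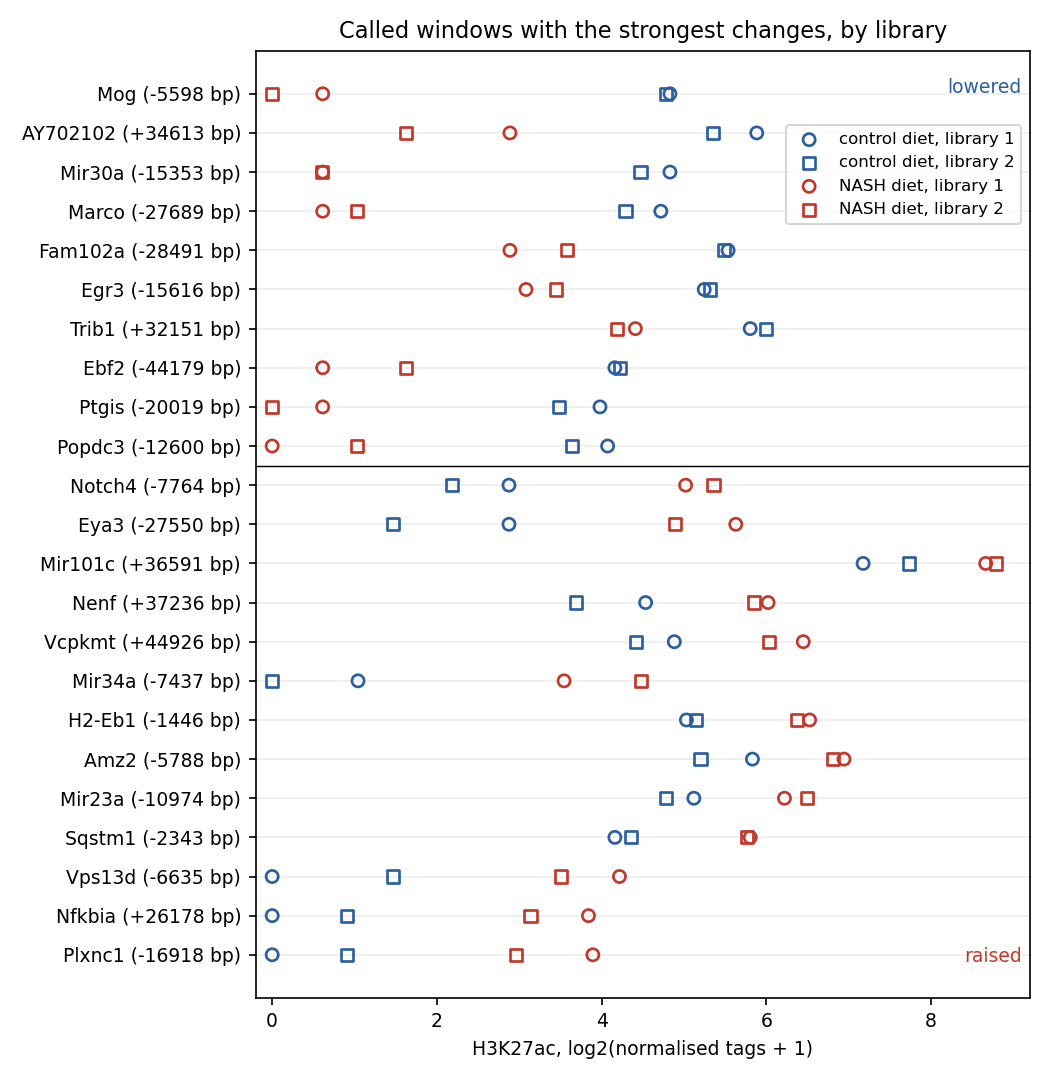
H3K27ac in each of the 4 libraries, as log2(normalised tags + 1), for the 10 lowered and 13 raised windows with the smallest adjusted p or the largest change per direction, 1 per gene and without predicted genes. Blue symbols are control and red symbols NASH libraries, circles library 1 and squares library 2. The windows were chosen by these values, which already separates the diets, and among the 4438 tested windows without a call the diets did not overlap in 2192.

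The falls were clearest in windows whose signal nearly vanished on the NASH diet. Both windows of Mog, that of Mir30a and that of AY702102 at 35052 bp had enough tags for testing only in the control libraries. At −5598 bp from Mog, a gene named for a myelin glycoprotein (chr17:37028895-37029098), the libraries held 27.5 and 26.5 normalised tags on the control diet and 0.53 and 0 on the NASH diet. These were 86 against 1 tags, a ratio of 0.00982 (exact 95% interval 0.000246 to 0.0562), with a log2 change of −4.24 (SE 0.55, limma adjusted p = 0.000198). The second Mog window fell as well, and together they went from 64.4 and 52.6 to 3.20 and 4.68. At −15353 bp from Mir30a (chr1:23256813-23257020), 27.5 and 21.2 stood against 0.53 and 0.52, or 74 against 2 tags (ratio 0.0228, 0.00271 to 0.0854; log2 change −3.78, limma adjusted p = 0.000301). All 3 tested windows near AY702102 fell. The one at 34613 bp (chr2:169928458-169928690), which RefSeq places inside the gene body of the zinc finger gene Tshz2, went from 58.1 and 39.8 to 6.40 and 2.08 (−3.10, SE 0.43, limma adjusted p = 0.000293). The call at 35052 bp was lost without NASH replicate 2 (0.162).

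Upstream of Marco, a scavenger receptor of Kupffer cells that binds bacteria and modified lipoproteins, 2 of the 3 tested windows fell. At −27689 bp (chr1:120532595-120532831) the values were 25.4 and 18.6 against 0.53 and 1.04 normalised tags, or 66 against 3 tags (ratio 0.0384, exact 95% interval 0.00772 to 0.117; log2 change −3.42, SE 0.53, limma adjusted p = 0.000628). At −26958 bp, 40 tags stood against 3 (ratio 0.0634, 0.0125 to 0.199; log2 change −2.76, limma adjusted p = 0.00428). Both windows had a site of LXR, ATF3 and P300 on the control lists and of none of them on the NASH lists. They were the only tested ones among the 8 near intergenic windows with that pattern.

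Windows near Egr3, Trib1 and Fam102a fell too. At −15616 bp from Egr3, a zinc finger factor gene (chr14:70061728-70061931), H3K27ac went from 37.0 and 38.9 to 7.47 and 9.88 normalised tags (−1.76, SE 0.35, limma adjusted p = 0.00218). A second Egr3 window at −2519 bp fell from 31.7 and 23.9 to 8.0 and 10.4, a call that was lost without NASH replicate 1 (0.115), NASH replicate 2 (0.0806) or control replicate 1 (0.0950). At 32151 bp from Trib1, a pseudokinase that directs the breakdown of C/EBP-alpha (chr15:59680677-59680934), the values were 54.9 and 62.8 against 20.3 and 17.2 (−1.34, SE 0.28, limma adjusted p = 0.00254). At −28491 bp from Fam102a (chr2:32506750-32506987) they were 45.4 and 43.8 against 6.40 and 10.9 (−2.02, SE 0.35, limma adjusted p = 0.000998). The windows of Trib1 and Fam102a and the farther one of Egr3 were called whichever library was left out.

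All 3 windows of Ebf2, a factor gene known from brown fat, lay within 803 bp and fell, from a sum of 42.2 and 58.8 to 5.33 and 6.76 normalised tags. Each had enough tags for testing only in the control libraries. The nearest to the TSS, at −44179 bp (chr14:67189012-67189215), had 16.9 and 17.7 against 0.53 and 2.08 (−2.82, SE 0.55, limma adjusted p = 0.00281). The call at −44774 bp was lost without NASH replicate 1 (0.137), NASH replicate 2 (0.0790) or control replicate 2 (0.0969). At −20019 bp from Ptgis, which encodes prostacyclin synthase (chr2:167260450-167260663), 37 tags stood against 1 (ratio 0.0228, exact 95% interval 0.000563 to 0.135; log2 change −3.17, limma adjusted p = 0.00291). The promoter windows of Ptgis fell with it (−3.13, limma adjusted p = 0.00889). At −12600 bp from Popdc3, 41 tags stood against 2 (ratio 0.0412, 0.00483 to 0.159; log2 change −3.09, limma adjusted p = 0.00321). Near Gm33677, 4 of 7 tested windows fell, and their sum went from 128 and 110 to 27.2 and 32.8. Without NASH replicate 1 the calls at −13102 and −4905 bp were lost (0.0644 and 0.112), without NASH replicate 2 those at −15679 and −13102 bp (0.0638 and 0.0919), and without control replicate 1 that at −4905 bp (0.0714).

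Of the other windows whose letters are shown, that of Rap1b, a small GTPase, at −30646 bp fell from 60.2 and 59.7 to 26.1 and 14.6 normalised tags (−1.31, SE 0.30, limma adjusted p = 0.00474). That of Ccr7, a chemokine receptor, at −13140 bp fell from 22.2 and 20.3 to 5.33 and 3.12 (−1.86, SE 0.45, limma adjusted p = 0.00794). Both calls were lost without NASH replicate 2 (0.103 and 0.0854). That of Trim30b at −42255 bp fell from 27.5 and 24.8 to 6.93 and 8.84 (−1.36, SE 0.38, limma adjusted p = 0.0144), and lost its call without NASH replicate 1 (0.0910) or NASH replicate 2 (0.0661).

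Groups of genes were read by the windows assigned to them, beside a median of 0.07 and shares of 2.36% raised and 3.93% lowered over all tested near intergenic windows. The lists of genes were chosen with earlier results of these data known, and each is described by its counts only. At an unadjusted p under 0.05, 330 of all 4736 tested near intergenic windows lay higher and 748 lower on the NASH diet. Of the 76 tested windows of 22 Kupffer cell identity genes, 5 fell and none rose, with a median change of −0.24. At an unadjusted p under 0.05 (limma), 25 lay lower and none higher, edgeR called 4 lowered, DESeq2 2 and limma with TMM 2. They included both Marco windows and one at 6726 bp from Paqr9, a gene of the progestin and adipoQ receptor family, which fell from 24.3 and 25.6 to 6.40 and 10.4 (limma adjusted p = 0.0251, and 0.0621 with TMM). The Paqr9 call was lost without NASH replicate 1 (0.159) or NASH replicate 2 (0.0657). Of the 17 tested windows of scavenger receptor and phagocytosis genes, 2 fell, the same pair at Marco.

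Of the 30 tested windows of LXR target genes, 2 fell and none rose, with a median change of 0.17. At an unadjusted p under 0.05, 2 windows lay higher and 4 lower, edgeR called 1 lowered and DESeq2 none. The called ones lay at Scd1, the desaturase that makes monounsaturated fatty acids (−14833 bp, 30.6 and 29.2 against 8.53 and 14.04, limma adjusted p = 0.0266), and at Ptgs1, which encodes cyclooxygenase 1 (−13771 bp, 28 against 2 tags, ratio 0.0603, exact 95% interval 0.00697 to 0.239, limma adjusted p = 0.0120). With TMM scaling the Scd1 call was lost (0.0720). Without NASH replicate 1 both were lost (0.184 and 0.0750). Without control replicate 1 they were lost too (0.0528 and 0.105), and Scd1 also without NASH replicate 2 (0.0613).

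Of the 43 tested windows of genes known from lipid-associated or scar-associated macrophages, 2 rose and 1 fell, with a median of 0.17. The raised ones lay at −2459 bp from Plin2, a coat protein of lipid droplets (34.9 and 19.0 against 64.5 and 57.7, limma adjusted p = 0.0192), and at −8625 bp from Lgals3, which encodes galectin-3 (16.9 and 19.0 against 38.9 and 37.96, 0.0394). Both calls were lost without NASH replicate 1 (0.139 and 0.186) or NASH replicate 2 (0.129 and 0.238), that of Plin2 without control replicate 2 (0.0608) and that of Lgals3 without control replicate 1 (0.0687). The lowered one lay at −2823 bp from Ctsb, the gene of the lysosomal protease cathepsin B (chr14:63119526-63119753). It went from 30.6 and 22.1 to 4.27 and 6.24 (−1.87, SE 0.41, limma adjusted p = 0.00489) and was called whichever library was left out. It was 1 of 2 that fell among the 50 tested windows of lysosomal genes, where none rose. At an unadjusted p under 0.05, 1 lysosomal window lay higher and 5 lower, and neither edgeR nor DESeq2 called one raised.

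Of the 59 tested windows of AP-1, ATF and C/EBP genes, 1 rose and 3 fell on the authors' scaling, and 3 rose and none fell with TMM. The raised one lay at −2478 bp from Atf3 (chr1:191185655-191185967) and went from 11.6 and 4.42 to 22.9 and 28.6 normalised tags (1.95, SE 0.43, limma adjusted p = 0.0238). That call was lost without NASH replicate 1 (0.104), NASH replicate 2 (0.252) or control replicate 2 (0.0736). The promoter windows of Atf3 changed by 0.96 (limma adjusted p = 0.0157), short of the log2 threshold. The lowered ones lay at Batf3, Batf2 and Fosb. Batf3, a factor gene known from dendritic cells, had 30.6 and 28.3 against 14.4 and 8.32 at 12920 bp (limma adjusted p = 0.0309, and 0.0676 with TMM). None of the 3 stayed called with TMM or without NASH replicate 2. Without NASH replicate 2 their limma adjusted p-values were 0.290 (Batf3), 0.151 (Batf2) and 0.166 (Fosb).

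Of the 54 tested windows of ETS, IRF, RUNX, KLF and other lineage factor genes, 1 rose and 3 fell, with a median of −0.06. The raised one lay at −9532 bp from Etv3, a gene of an ETS repressor (27.5 and 28.3 against 63.5 and 57.7, limma adjusted p = 0.0168). It lost its call without NASH replicate 1 (0.134) or NASH replicate 2 (0.127). The lowered ones were both Egr3 windows and one of Egr1, and the Egr1 call was lost whichever library was left out (0.0582 to 0.124). Of the 41 tested windows of TGF-beta, BMP and Notch genes 3 rose, all at Notch4. Of the 33 tested windows of NF-kB and inflammatory genes, 1 rose (Nfkbia) and 1 fell, at −4292 bp from the anti-inflammatory cytokine gene Il10 (28.5 and 33.6 against 10.7 and 14.6, limma adjusted p = 0.0327, and 0.0935 with TMM). The Il10 call was lost without NASH replicate 1 (0.181), NASH replicate 2 (0.103) or control replicate 2 (0.0834).

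On the authors' scaling limma made no call in the tested windows of interferon (19), iron and heme (23) and cell migration and matrix genes (33). With TMM limma called 1 iron and heme window raised and no other window of these lists. At an unadjusted p under 0.05 these lists had 4, 7 and 4 windows, and edgeR called none, 1 raised and 1 raised, and DESeq2 none. None of the 8 tested windows near markers of other cell types was called by limma, edgeR or DESeq2, and 1 had an unadjusted p under 0.05. Of the 32 tested windows of signalling adaptor and phosphatase genes 1 fell, at 43275 bp from Dusp1, a phosphatase of MAP kinases (27.5 and 20.8 against 5.87 and 0, limma adjusted p = 0.00672, and 0.0683 without NASH replicate 2).

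Some called windows lay next to each other. Within 5000 bp of another called near intergenic window lay 40 of the 112 raised and 33 of the 186 lowered windows, and no called window had one of the opposite direction that near. How many of all tested windows had a tested neighbour that near, and how often such neighbours changed alike, was not counted. These counts therefore cannot show a clustering of the calls. Of the 240 genes with a called window, 43 had at least 2, of which 41 in one direction only. The exceptions were Pisd-ps3 and Pabpc2. The genes with the most windows were Pisd-ps3 (71), Mir101c (28), A630001O12Rik (26), Irf2bp2 (17) and 4933433H22Rik (15). Windows near Pisd-ps3 lay on an unplaced contig, where reads of near-identical copies may be split or pooled.

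Repeats held 2256 of the windows (23.3%). Satellite repeats, where the assembly carries few of many near-identical copies, held 40, of which 35 were tested. By limma 8 rose (22.9%) and none fell, against 2.00% and 4.59% of all tested windows of the table. With TMM 19 rose (54.3%) and none fell, against 3.32% and 2.51%. At an unadjusted p under 0.05 (limma) 28 lay higher and none lower, edgeR called 19 raised and DESeq2 12. The median change of the satellite windows was 1.10. The highest signals of all were of this kind: 956 and 937 normalised tags against 1488 and 1932 at 24303 bp from 4933422A05Rik, and 682 and 944 against 1245 and 1361 at −35529 bp from Pak3, both not called by limma on the authors' scaling. On that scaling their limma adjusted p-values were 0.0102 and 0.0328, under the limit, and both missed the call by the log2 threshold alone. With TMM the window of 4933422A05Rik was called raised (limma adjusted p = 0.0349) and that of Pak3 was not (0.0599). At 36591 bp from Mir101c the values were 144 and 211 against 405 and 441 (limma adjusted p = 0.00141, and 0.0622 without NASH replicate 2). Satellite and unplaced windows together took 0.507% and 0.526% of the window tags on the control diet and 0.782% and 0.982% on the NASH diet. Without them 104 windows rose and 185 fell. RefSeq places 2402 of the windows (24.8%) inside a gene body, 869 of them in a protein-coding and 1436 in an lncRNA gene.

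Called windows were found in both directions at all distances. From 1 to 5 kb, 19 rose and 40 fell of 1087 tested (1.75% and 3.68%). From 20 to 50 kb, 48 rose and 65 fell of 1586 (3.03% and 4.10%). Downstream at 20 to 50 kb, 26 rose and 21 fell of 588 (4.42% and 3.57%). Over all 35947 tested windows, 2.00% rose and 4.59% fell. With TMM, 27 rose and 17 fell from 1 to 5 kb, and 78 rose and 35 fell from 20 to 50 kb. Downstream at 20 to 50 kb, TMM gave 37 raised and 11 lowered windows. These shares were not compared by a test. At the lower limit of the rule the windows just inside were those of Zc3h4 at −1001 bp (32.7 and 37.1 against 40.5 and 25.5 normalised tags) and Hspa13 at −1002 bp (22.2 and 26.1 against 21.9 and 12.5). At the upper limit Pole4 at −49992 bp (2.11 and 0 against 0.53 and 0) and Gm10636 at 49985 bp (0 and 0.44 against 0 and 3.12) lay just inside. Tob1 at −50002 bp (12.7 and 15.0 against 11.7 and 13) and Apbb1ip at −50012 bp (10.6 and 11.5 against 4.27 and 2.08) lay just outside.

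More of the near intergenic windows overlapped a listed site of each factor on the NASH diet than on the control diet, by at least 1 bp. For LXR the share went from 66.3% to 73.6% (6419 to 7125 windows), for ATF3 from 34.8% to 60.6% (3364 to 5864) and for P300 from 42.1% to 73.8% (4076 to 7138). Over all windows of the table the shares went from 52.7% to 57.7%, from 21.4% to 42.0% and from 32.3% to 58.9%. With 1 list per factor and diet no spread between replicates can be given for these shares. The NASH lists were longer: 51709 against 44463 sites for LXR, 38828 against 16109 for ATF3 and 52628 against 25219 for P300. With the longer list cut to the length of the shorter by the authors' enrichment score, the shares were 68.9% for LXR and 47.6% for P300 on the NASH diet.

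**Figure D3:**
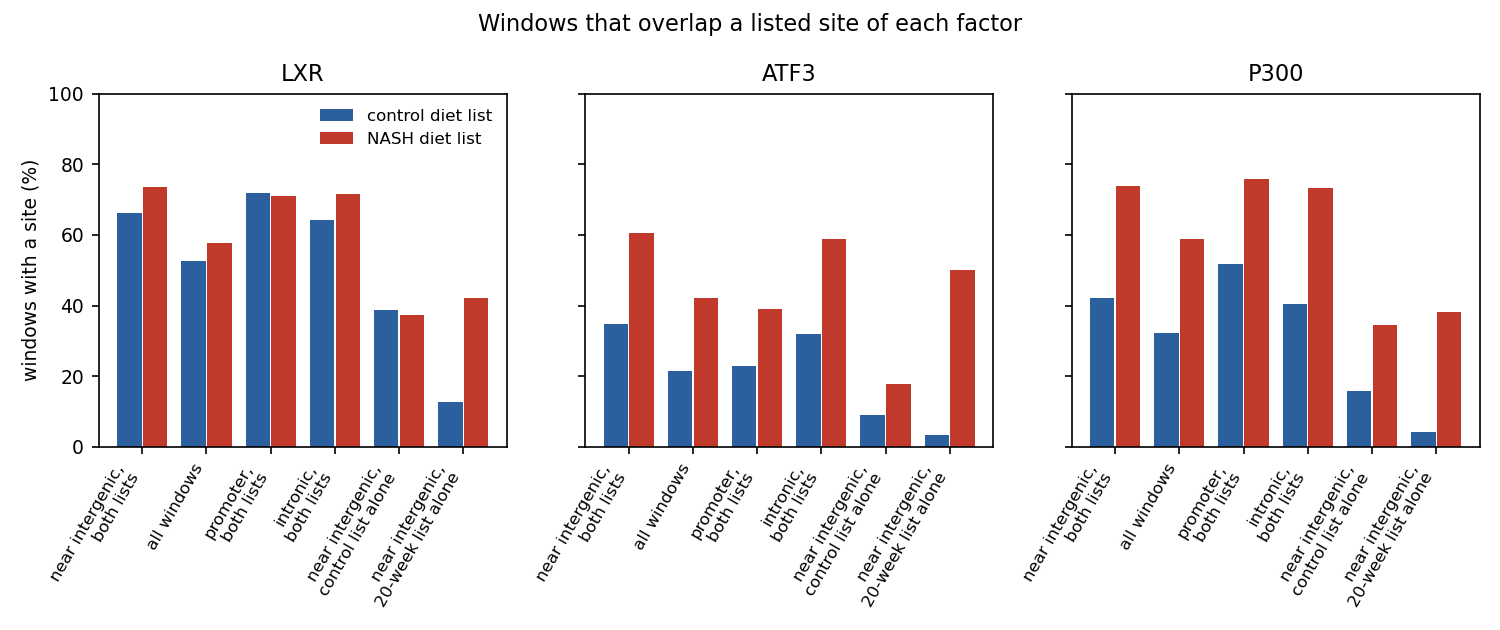
Share of windows (percent) that overlap a site of LXR, ATF3 or P300 on the authors' control list (blue) and NASH list (red), for the near intergenic windows, all windows and 4 other classes. Of the near intergenic windows 42.1% had a P300 site on the control list and 73.8% on the NASH list.

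The share of windows with raised H3K27ac was read against the sites a window had gained, that is, sites on the NASH list alone. Among the 151 tested windows that gained all 3 factors, 24 rose and 2 fell (15.9% and 1.32%), with a median change of 0.62. Among the 1433 tested windows with all 3 factors on both lists, 4 rose and 38 fell (0.279% and 2.65%), with a median of 0.03. The 151 were tested out of 410 windows and the 1433 out of 2154, with median control levels of 2.495 and 8.29 normalised tags. A window with too few tags in both control libraries was tested only if both NASH libraries had enough. This selection favours rises in the class that gained all 3, and how many of its raised windows entered this way was not counted. Windows with 0, 1 and 2 gained factors had medians of 0.02, 0.03 and 0.25, and 22, 27 and 39 raised windows of 2354, 1604 and 627 tested. The order of these shares was the same with TMM, where 30 windows rose and 2 fell among those that gained all 3 and 10 rose and 19 fell among those with all 3 on both lists. Without NASH replicate 1 or 2, 2 and 4 windows were called raised among those that gained all 3. These shares describe the classes and were not compared by a test.

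Read from the other side, 75 of the 112 raised windows (67.0%) had a P300 site on the NASH list alone, 63 (56.3%) such an ATF3 site and 39 (34.8%) such an LXR site. Of the lowered windows, 26.9%, 25.3% and 4.30% had these, and of the tested windows without a call 28.8%, 29.97% and 9.51%. At least 1 gained factor was found at 80.4% of the raised, 45.2% of the lowered and 49.8% of the uncalled windows. The filter on low counts limits these shares too, since 55 of the 112 raised windows passed it only through the NASH libraries. Raised windows were thus partly chosen by low control and high NASH values. They were not matched to the uncalled windows by control level, so the shares cannot separate gained sites from this selection. With P300 lists of equal length, 39 rose and 17 fell of the 689 tested windows that gained P300. The windows of Vcpkmt at 44926 bp, Mir34a at −7437 bp and A630001O12Rik at 33432 bp had the smallest adjusted p among those that gained all 3. The last, inside the lncRNA Gm31718, went from 4.22 and 3.54 to 30.9 and 20.8 normalised tags (2.70, SE 0.43, limma adjusted p = 0.00273, and 0.0737 without NASH replicate 1). The windows of Nfkbia at 26178 bp, H2-Eb1 and Nenf at 37236 bp show the range: the first gained all 3, the second LXR alone, and the third had LXR on both lists and neither of the others.

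Among the windows with all 3 factors on both lists, the one with the smallest adjusted p lay at 15971 bp from 1700021F07Rik (chr2:173538323-173538803). Its H3K27ac fell from 80.3 and 94.2 to 14.9 and 14.6 normalised tags (−2.22, SE 0.27, limma adjusted p = 8.22e-05) and was called whichever library was left out. The Ctsb window had all 3 on both lists as well. The Mog window and the AY702102 window at 34613 bp, in contrast, overlapped no listed site of the 3 factors on either diet, as did 1262 of the 9678 windows. Of the 242 tested ones of that kind, 9 rose and 20 fell (3.72% and 8.26%), against 2.00% and 4.59% of all tested windows of the table. With TMM the balance was the other way, as 21 rose and 11 fell (8.68% and 4.55%, against 3.32% and 2.51%).

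**Figure D4:**
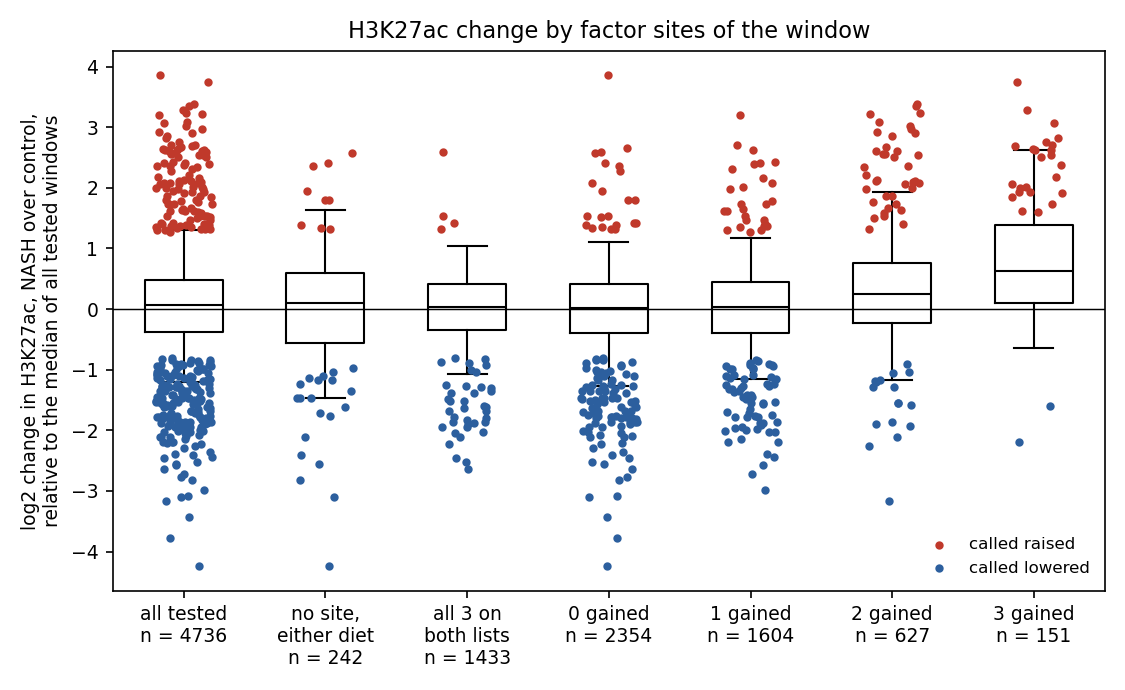
Log2 change in H3K27ac (NASH over control, relative to the median of all tested windows) of the tested near intergenic windows, by the factor sites of the window. Boxes give the quartiles and whiskers the 5th to 95th percentile, red points are raised and blue points lowered windows, and the median goes from 0.02 with no gained factor to 0.62 with all 3 gained.

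The promoter windows of the same genes were also tested. These are all windows within 1000 bp of the TSS, of any annotation and ATAC list, unlike the promoter class compared below, which goes by annotation. The promoter windows were not chosen by a call, unlike the near intergenic windows, so the sizes of the changes cannot be compared. Of the 82 genes with a raised window, 50 had promoter windows that could be tested as a sum, and 2 of these were called raised (Cxcr4 and Nfil3), while 36 of 50 lay above the median of all promoter sums. Of the 160 genes with a lowered window, 102 were tested and 11 called lowered, among them Ptgis, Fam102a, Zfhx3 and Etv1, and 60 of 102 lay below that median. Over all 8644 tested promoter sums 0.821% were called raised and 2.89% lowered. None of these genes had its promoter called in the opposite direction. The change of a gene's near intergenic windows was also set against that of its promoter windows in 1576 genes, in one fit on the ratio. It differed for 3 genes (0.190%), 4930554I06Rik (−3.56, limma adjusted p = 0.0429), Nenf (3.08, 0.0429) and Cttnbp2nl (2.72, 0.0492), against 248 at an unadjusted p under 0.05. All 3 calls were lost without NASH replicate 1 and without NASH replicate 2.

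The calls in near intergenic windows on both ATAC lists can be set beside those in the classes most like them. Promoter windows on both lists rose in 0.399% and fell in 1.97% of 8774 tested, intronic windows on both lists rose in 1.72% and fell in 3.11% of 9538, and intergenic windows farther than 50000 bp rose in 3.38% and fell in 3.68% of 1303. Of near intergenic windows on the control ATAC list alone, 0.766% rose and 12.95% fell, and of those on the 20-week diet list alone 21.6% rose and 1.78% fell. The median changes of these 5 classes were −0.02, 0.06, 0.10, −0.22 and 0.61. The classes share the same 4 libraries, so these shares describe them and were not compared by a test.

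**Figure D5:**
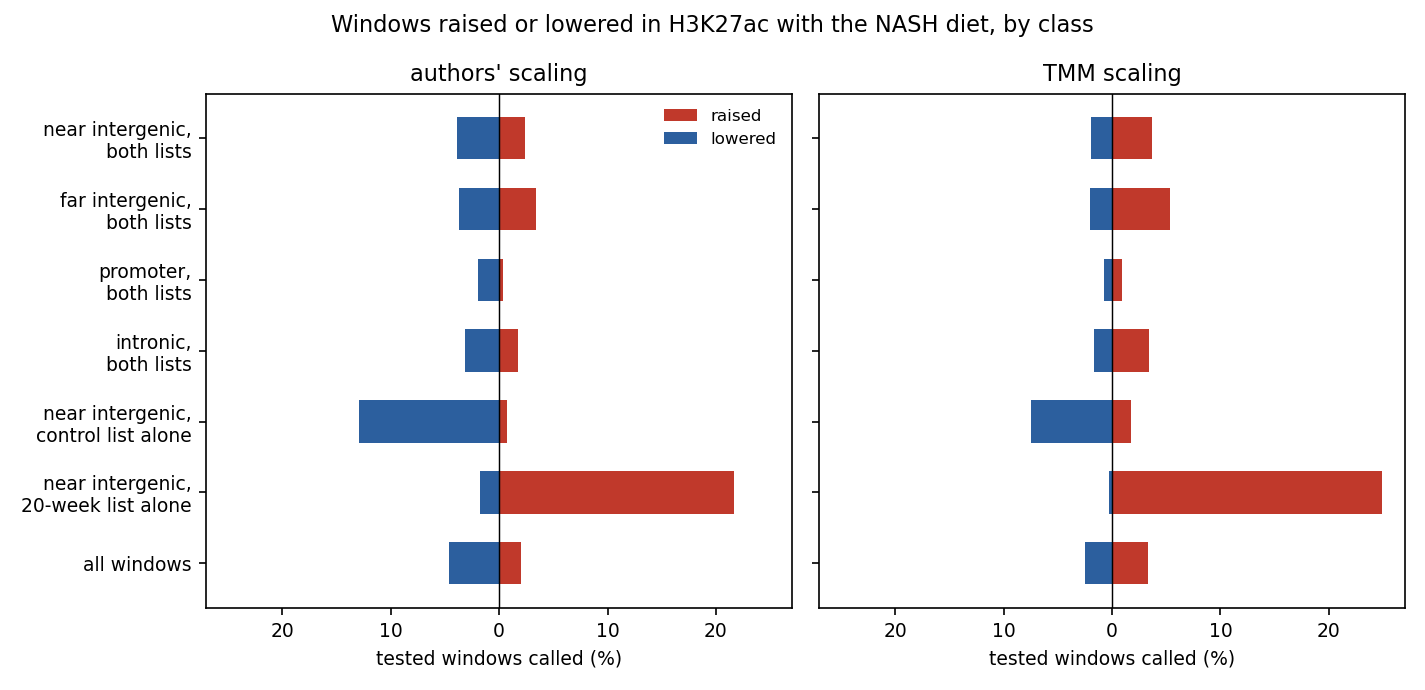
Share of tested windows called raised (red, to the right) or lowered (blue, to the left) with the NASH diet, in percent, for 6 classes of windows and all windows, on the authors' scaling and with TMM factors. The near intergenic windows on both lists have 2.36% raised and 3.93% lowered on the authors' scaling and 3.65% and 1.90% with TMM.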

How the data were processed

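ChIP-seq of Kupffer cells was analysed from the files the authors deposited. The submitters' processing notes name Bowtie2, HOMER, DESeq2, mm10 and GRCm38, without a version or role. In the H3K27ac table the authors deposited a signal, the HOMER tag count of each window normalised to 10000000 tags, per the file headers. Each deposited list of LXR, ATF3 or P300 sites gives an IDR score (a measure of reproducibility), and the LXR and P300 lists also an enrichment score, per the file headers. In the ATF3 lists the score column is unnamed and no threshold is stated in the sources used here.

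The windows, the gene lists and the motifs were chosen with earlier results of these data known. Multiplying by the library total gave whole tags for 100% of values (within 0.02). Windows were kept by edgeR's filterByExpr (edgeR 4.0.16) on these tags, and log2(value + 1) was tested on the whole table with limma 3.58.1 (limma-trend, R 4.3.3), with Benjamini-Hochberg adjustment over 35947 windows. The script was tested on simulated data. The ratio of near intergenic to promoter sums was fitted likewise. Replicates differed by more than sampling noise (chi-square per degree of freedom 2.14 and 1.78), and the correlation across windows was 0.847 (control) and 0.887 (NASH). Sites were overlapped with bedtools 2.31.1. Ratios of tags have exact 95% binomial intervals.

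Windows were named by rule: the 10 smallest adjusted p and the 5 largest changes per direction, 1 per gene, without predicted genes, the 5 highest levels, the 5 genes with the most windows, those nearest the distance limits, the 3 smallest adjusted p per pattern of sites, and up to 3 called per direction and gene list. Windows of genes with at least 3 called windows, called windows near microRNAs and those with a RefSeq promoter were added after their values were seen. Alternatives were TMM, edgeR and DESeq2 1.42.0 on recovered tags, a pseudocount of 4, no filter, a replicate block, each library left out, an overlap of 50%, an IDR score of at least 830 and, added after seeing the data, lists of equal length and windows without satellites and contigs.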

Additional observations from a re-analysis of the deposited data

How the results depend on the processing

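The counts of called windows depended on the test. Against 112 raised and 186 lowered, DESeq2 gave 59 and 17, TMM 173 and 90, edgeR 199 and 123, and no filter 0 and 0 (limma, with 1347 at an unadjusted p under 0.05). Leaving out 1 library gave 14 to 135 raised and 40 to 208 lowered. For windows gaining all 3 factors (24 and 2), DESeq2 gave 9 and 0, no filter 0 and 0, and leaving out a library 2 to 25 and 0 to 3. The median change ranged from 0.010 (without control replicate 1) to 0.091. With P300 lists of equal length, 4608 windows had a NASH site and 1204 gained one, against 7138 and 3219. Genes whose windows changed unlike their promoter numbered 10 with a pseudocount of 4 and 0 to 50 without 1 library. Apart from the scalings, tests and list lengths themselves, the cause was not tested.

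Replicate numbers did not pair the libraries: deviations of same-numbered libraries had a correlation of 0.040 across windows. A replicate block gave 149 raised and 334 lowered windows, 4 lowered among those gaining all 3 factors, and 0 genes unlike their promoter. Of 88 named windows none reversed under any alternative, and 77 kept their side of the threshold with TMM, 81 with edgeR, 38 with DESeq2, 84 with a pseudocount of 4, 88 with the block, and 37 and 35 without NASH replicate 1 or 2. The motif search in the central 150 bp was not run, since no genome was used. The depth of control library 1 limits low windows most.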
